A study of Mus musculus with 24 samples.

Results

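The genes described here were 10 endothelial and angiogenic genes of mouse calf muscle, out of 12393 genes listed for the array, read by 15 of the 22626 non-control probe sets on the arrays. They were *Tmem100*, *Pecam1*, *Cdh5*, *Kdr*, *Flt1*, *Tek*, *Tie1*, *Vegfa*, *Eng* and *Apln*. *Tmem100* was included because it rose with unloading in all 3 genotypes, so its changes are a description and no test of them is given. The other 9 genes, with 14 probe sets, were chosen by name. A probe set was assigned to a gene only where the platform annotation listed that gene alone.

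The study asked which genes respond to disuse and which of those responses need the NF-κB family proteins p50 (the product of *Nfkb1*) and Bcl-3. Gastrocnemius and plantaris muscles came from male mice aged 6 weeks, either weight bearing (WB) or unloaded by hind limb suspension (HU) for 6 days. The 3 genotypes were wild type (B6129PF2/J), *Nfkb1-/-* (B6;129P2-Nfkb1tm1Bal/J) and *Bcl3-/-* (FVB;129P2-Bcl3tm1Ver/J), with 4 arrays in each of 6 groups and 24 arrays in all. The labels call the 4 arrays of a group biological replicates. Both knockouts carry their deletion in the germline, and so in every cell type, and the *Bcl3-/-* line carries an FVB background that the wild type mice do not share. Strain and deletion cannot be told apart in any comparison between genotypes.

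The values were linear RMA intensities. Array medians were 11.6 to 11.9 on the 16 wild type and *Nfkb1-/-* arrays and 81.1 to 86.8 on the 8 *Bcl3-/-* arrays, a ratio of 7.29, so no *Bcl3-/-* level was set against a level of another genotype. Changes within a genotype, on the log2 scale, were compared instead. All *Bcl3-/-* arrays and no others have the higher scale. A difference of changes between *Bcl3-/-* and another genotype thus cannot be told apart from an effect of the scale. No probe set listed *Nfkb1* as its only gene. The single *Bcl3* probe set read 4.54 to 6.41 on the 8 wild type arrays, under the array medians, and so does not check the deletion. *Bcl3-/-* WB replicates 2 and 4 lay farthest from their group mean of all the arrays, at a root mean square distance of 0.269 and 0.219 log2 units. The *Bcl3-/-* changes that moved most without them are given both ways. Wild type HU replicate 1 (0.213) and wild type WB replicate 4 (0.210) came next, nearly as far out as the second. Skeletal muscle fibre markers were at 4841 or more on every array, and all 8 endothelial markers (*Pecam1*, *Cdh5*, *Kdr*, *Tie1*, *Tek*, *Emcn*, *Cldn5* and *Egfl7*) were measured, the lowest value being 14.1 for *Tie1*.

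Endothelial cells line the capillaries that run along each muscle fibre. VEGF-A, made largely by the muscle fibres themselves, acts on the receptors VEGFR2 (*Kdr*) and VEGFR1 (*Flt1*) of these cells, the angiopoietin receptor Tie2 (*Tek*) and its partner Tie1 keep vessels stable, and PECAM-1 and VE-cadherin (*Cdh5*) hold neighbouring cells together. Endoglin (*Eng*) is a co-receptor for BMP9 and related ligands at the receptor ALK1, and *Tmem100*, a small membrane protein of arterial endothelium, is a known target of that pathway. Apelin (*Apln*) is a peptide made by sprouting endothelial tip cells. In whole muscle, fewer cells of a type and less RNA per cell cannot be told apart.

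The results turn mostly on *Eng* and *Flt1*, so the 250 bases before the RefSeq transcription start of each are shown, from the mouse build GRCm38.p6, 5′ to 3′ on the strand of the gene. Capitals mark the ETS core GGAAG or its reverse complement CTTCC, the short motif bound by ETS factors, which drive many endothelial genes. *Eng* lies on the plus strand, at chr2:32646345-32646594, and *Flt1* on the minus strand, at chr5:147726012-147726261.
Eng: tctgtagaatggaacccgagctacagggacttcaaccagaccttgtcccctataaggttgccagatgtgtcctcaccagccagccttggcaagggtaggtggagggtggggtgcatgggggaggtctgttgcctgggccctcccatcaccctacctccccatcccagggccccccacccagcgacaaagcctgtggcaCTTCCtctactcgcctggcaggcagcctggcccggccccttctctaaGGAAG
Flt1: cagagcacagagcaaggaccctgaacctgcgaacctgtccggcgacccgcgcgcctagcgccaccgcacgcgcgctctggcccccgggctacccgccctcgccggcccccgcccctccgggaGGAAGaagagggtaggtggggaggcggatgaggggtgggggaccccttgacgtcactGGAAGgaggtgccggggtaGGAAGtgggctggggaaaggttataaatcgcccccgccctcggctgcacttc

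The *Eng* window held 2 matches and the *Flt1* window 3. A promoter was listed for 7 of the 10 genes, with 2 for *Vegfa*, and 7 of these 8 promoters held the ETS core, against 64.1% of all 32851 listed mouse promoters read over the same 250 bases on both strands. The NF-κB consensus was found in 3 of the 8 windows, upstream of *Kdr*, *Flt1* and 1 of the 2 *Vegfa* starts (chr17:46032378-46032627), and in 7.3% of all promoters. The hypoxia response core ACGTG was found in 1 of the 8 (16.6% of all promoters). That was the window of the more downstream *Vegfa* start (chr17:46025164-46025413), and the window of the upstream *Vegfa* start held 0 matches. The GC-rich element GGCGCC of BMP-regulated SMAD proteins was in 0 of the 8 (9.6% of all promoters). A match is only a run of letters, and none of the motifs was tested for binding in these data.

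*Tmem100* was higher in HU than in WB muscle in every genotype, about 4-fold to 5-fold. In wild type WB muscle its intensity was 65.4, 34.7, 42.2 and 50.3 on the 4 arrays, and in wild type HU muscle 162, 89.3, 329 and 297. In *Nfkb1-/-* mice it was 53.7, 47.2, 84.4 and 52.8 in WB and 249, 313, 240 and 393 in HU muscle. On the scale of the *Bcl3-/-* arrays it was 147, 288, 168 and 184 in WB and 956, 1242, 2102 and 382 in HU muscle. In none of the genotypes did a WB array reach the lowest HU array.

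The *Tmem100* change, HU minus WB, was 2.05 log2 units in wild type (4.14-fold), 2.34 in *Nfkb1-/-* (5.05-fold) and 2.38 in *Bcl3-/-* mice (5.19-fold), each with a standard error of 0.39. Among the 11098 genes tested, its rank by size of rise was 5 for wild type, 2 for *Nfkb1-/-* and 3 for *Bcl3-/-* mice. The gene was chosen for its rise, so these ranks and the intervals below only describe it and are no separate evidence. The HU arrays were spread widely, with a mean of 219 ± 113 (SD, n = 4) for wild type, 299 ± 70.5 for *Nfkb1-/-* and 1171 ± 716 for *Bcl3-/-* mice, against WB means of 48.1 ± 13.1, 59.5 ± 16.8 and 197 ± 62.6. The low HU arrays were replicate 2 in wild type and replicate 4 in *Bcl3-/-* mice. The responses of wild type and *Nfkb1-/-* mice differed by -0.29 log2 units, with a 95% interval of -1.43 to 0.86, and those of wild type and *Bcl3-/-* mice by -0.33, with an interval of -1.47 to 0.82.

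**Figure D1:**
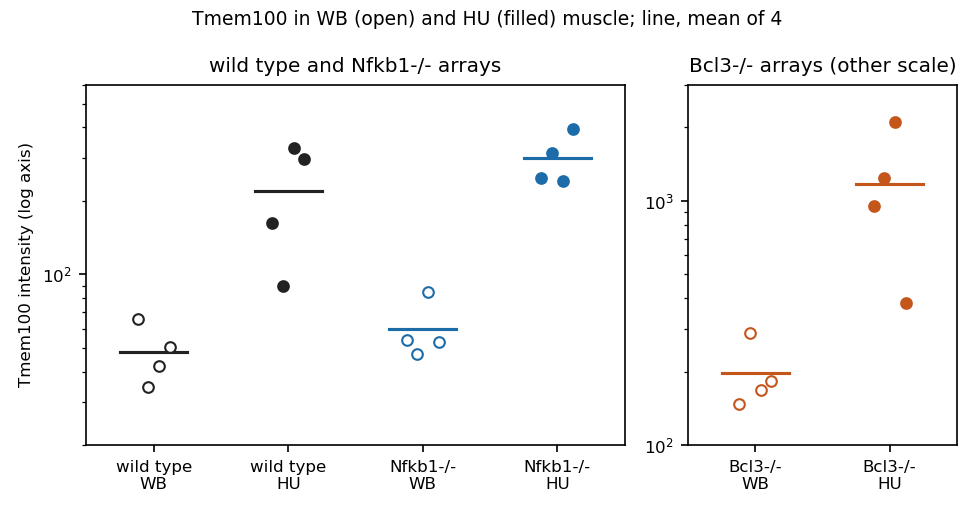
Intensity of *Tmem100* on each of the 24 arrays (log axis), WB open and HU filled, with the mean of each group of 4 as a line. The *Bcl3-/-* arrays have a panel and a scale of their own, and in each genotype every HU array, from 89.3 upward in wild type, lies above every WB array.

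The 9 genes chosen by name did not share this rise. Of their 14 probe sets, 0 passed the test in wild type muscle, where 3.97% of all probe sets did, 0 passed in *Nfkb1-/-* muscle, where 11.4% did, and 0 passed in *Bcl3-/-* muscle, where 10.4% did (limma, Benjamini-Hochberg adjusted p under 0.05 over 19294 probe sets). At an unadjusted p under 0.05, 0 were higher and 2 lower in wild type, 1 higher and 0 lower in *Nfkb1-/-*, and 1 higher and 3 lower in *Bcl3-/-* muscle. Over all probe sets 18.0%, 24.3% and 26.1% had such a p in the 3 genotypes. HU and WB arrays did not overlap for 1 of the 14 in each genotype, against 10.7%, 18.6% and 15.4% of all probe sets. Of the 19294 probe sets, 9722 exceeded an intensity of 20 on at least 4 of the 16 wild type and *Nfkb1-/-* arrays. The others passed the intensity filter only by counting the *Bcl3-/-* arrays, as did *Apln* and *Cdh5* 1422047_at. The shares of all probe sets in wild type and *Nfkb1-/-* muscle thus include many dim ones. The shares of all genes given below rest on the same filter.

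Of the 14 probe sets, 12 exceeded an intensity of 20 on at least 1 of the 16 wild type and *Nfkb1-/-* arrays. As a description, the changes of these 12 ran from -0.47 to -0.02 in wild type muscle, with a median of -0.14 log2 units, where the median over all probe sets was -0.01. Not all signs held in the alternatives described at the end. There *Pecam1*, *Kdr*, *Tie1*, *Vegfa* 1420909_at and *Eng* 1432176_a_at came above 0 in some, by 0.12 at most (*Kdr*). In *Nfkb1-/-* muscle 6 of the 12 were above and 6 below 0, with a median of -0.01, and in *Bcl3-/-* muscle 5 of the 14 were above and 9 below, with a median of -0.07. Over all 14, the 95% intervals of the changes reached from -0.80 to 0.39 in wild type, -0.71 to 0.78 in *Nfkb1-/-* and -0.81 to 0.72 in *Bcl3-/-* muscle. No interval reached 1 log2 unit, a doubling or a loss of 50%, in either direction.

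**Figure D2:**
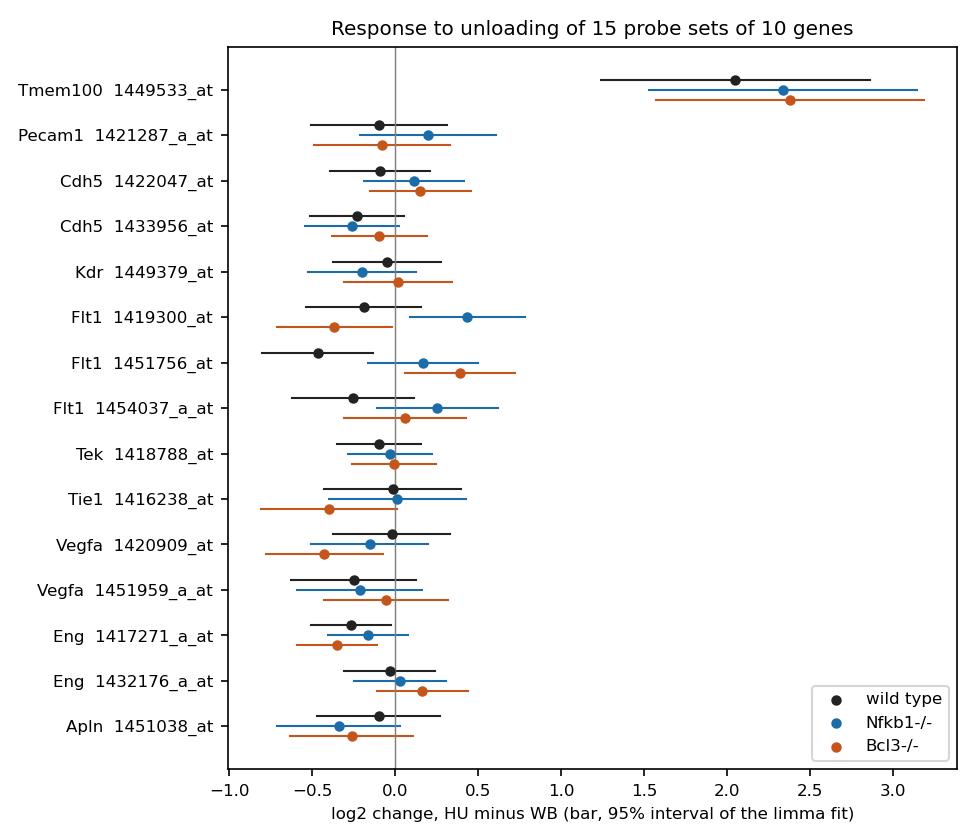
Change from WB to HU on the log2 scale for all 15 probe sets in wild type, *Nfkb1-/-* and *Bcl3-/-* muscle, each point with the 95% interval of the limma fit. *Tmem100* stands at 2.05 to 2.38, and the other 14 probe sets lie between -0.47 and 0.43.

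Many of these probe sets were read not far above the floor of 20 used for the filter. On the 16 wild type and *Nfkb1-/-* arrays, 10 of the 15 probe sets exceeded it on every array, with *Eng* 1432176_a_at coming down to the floor itself and *Cdh5* 1433956_at and *Kdr* reaching lows of 23.7 and 23.8. The *Apln* probe set, at 8.01 to 16.2, and 1 of the 2 *Cdh5* probe sets, 1422047_at at 4.57 to 7.32, exceeded it on none of the 16. They passed the filter only through the *Bcl3-/-* arrays, where a value of 20 lies well under the array medians. *Tie1* exceeded 20 on 8 of the 16 arrays, the *Flt1* probe set 1454037_a_at on 4 and the *Vegfa* probe set 1451959_a_at on 15.

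Among the ligands, *Vegfa*, which codes for the main signal for capillary growth, showed no change beyond its spread in wild type muscle. Its probe set 1420909_at read 61.2, 81.5, 54.7 and 86.6 in WB and 69.5, 94.9, 60.7 and 55.7 in HU muscle of wild type mice, a change of -0.02 ± 0.17 (SE) log2 units. In *Nfkb1-/-* mice it read 85.8, 80.0, 69.9 and 88.4 in WB and 59.2, 89.1, 87.6 and 59.9 in HU muscle, a change of -0.15 ± 0.17. In *Bcl3-/-* mice it read 448, 395, 422 and 497 in WB and 290, 363, 281 and 386 in HU muscle. In that genotype all 4 HU arrays lay below all 4 WB arrays, by -0.43 ± 0.17 log2 units, and the difference did not pass the test (limma, adjusted p = 0.11). The probe set 1451959_a_at gave changes of -0.25, -0.21 and -0.06 in wild type, *Nfkb1-/-* and *Bcl3-/-* mice, with adjusted p-values of 0.53, 0.54 and 0.88. In *Bcl3-/-* muscle it gave -0.19 without WB replicate 2 and 0.13 without WB replicate 4.

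*Apln*, the gene of apelin, was under the floor of 20 on all wild type and *Nfkb1-/-* arrays, and its changes there are a description. They were -0.10 ± 0.18 in wild type and -0.34 ± 0.18 (SE) log2 units in *Nfkb1-/-* muscle, where the HU arrays read 12.7, 8.53, 8.01 and 16.2 against 14.5, 14.8, 11.5 and 14.5 in WB. In *Bcl3-/-* muscle the change was -0.26 ± 0.18 (limma, adjusted p = 0.37), and it was -0.43 without WB replicate 2 and -0.17 without WB replicate 4.

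The VEGF receptors were *Kdr*, which carries the growth signal, and *Flt1*, which in its membrane-bound and soluble forms binds VEGF-A and limits that signal. No change of *Kdr* passed the test. In wild type muscle it read 26.4, 28.4, 45.5 and 31.7 in WB and 23.8, 32.8, 33.9 and 35.6 in HU, and in *Nfkb1-/-* muscle 33.3 to 50.5 in WB and 27.4 to 40.5 in HU. On the *Bcl3-/-* scale it read 187 to 202 in WB and 172 to 226 in HU. The changes were -0.05, -0.20 and 0.02, each ± 0.16 (SE) log2 units, with overlapping arrays in every genotype and adjusted p-values of 0.92, 0.49 and 0.96.

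*Flt1* had the largest differences of response between genotypes among the 9 genes, and its 3 probe sets did not give the same picture. The brightest, 1451756_at, read 52.9, 61.4, 45.5 and 59.3 in WB and 31.8, 45.0, 42.2 and 39.8 in HU muscle of wild type mice. All 4 HU arrays were below all 4 WB arrays. In *Nfkb1-/-* muscle it read 48.5, 59.0, 60.2 and 44.5 in WB and 48.2, 63.9, 80.6 and 49.3 in HU. On the *Bcl3-/-* scale it read 312, 286, 313 and 287 in WB and 385, 469, 459 and 287 in HU. There 3 of the 4 HU arrays lay above every WB array, and replicate 4 lay among them.

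The changes of this probe set were -0.47 ± 0.16 (SE) in wild type (limma, adjusted p = 0.11), 0.17 ± 0.16 in *Nfkb1-/-* (adjusted p = 0.60) and 0.39 ± 0.16 log2 units in *Bcl3-/-* muscle (adjusted p = 0.12). The wild type response was 0.86 ± 0.23 log2 units below that of *Bcl3-/-* mice, at a log2 difference of -0.86 with a 95% interval of -1.33 to -0.39. With adjustment over all probe sets this difference did not pass (adjusted p = 0.067). Against *Nfkb1-/-* mice the difference of responses was -0.64 ± 0.23 (adjusted p = 0.25). Of the 14 probe sets, 0 passed the test of wild type against *Nfkb1-/-* responses, where 0.176% of all probe sets did, and 0 passed that of wild type against *Bcl3-/-* responses, where 1.07% did. At an unadjusted p under 0.05 there were 2 and 1, all of *Flt1* and all lower in wild type, against 12.3% and 13.6% of all probe sets. Without *Bcl3-/-* HU replicate 4 the difference from *Bcl3-/-* mice was -1.01 (adjusted p = 0.026), and without *Nfkb1-/-* HU replicate 3 it kept its value and passed (adjusted p = 0.041).

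The probe set 1419300_at read 34.2, 36.8, 30.9 and 28.9 in WB and 23.7, 28.6, 29.6 and 33.2 in HU muscle of wild type mice. In *Nfkb1-/-* muscle it read 34.6, 35.7, 38.2 and 37.5 in WB and 41.1, 65.3, 56.7 and 38.6 in HU. In *Bcl3-/-* muscle it read 301, 508, 330 and 252 in WB and 258, 266, 285 and 236 in HU. All 4 *Nfkb1-/-* HU arrays were above all 4 WB arrays, whereas the wild type and *Bcl3-/-* arrays overlapped. The changes were -0.19 ± 0.17 (SE) in wild type (adjusted p = 0.63), 0.43 ± 0.17 in *Nfkb1-/-* (adjusted p = 0.099) and -0.37 ± 0.17 log2 units in *Bcl3-/-* muscle (adjusted p = 0.17). The *Bcl3-/-* value rested on WB replicate 2, without which it was -0.17 (adjusted p = 0.54), and was -0.50 without WB replicate 4 (adjusted p = 0.062). The *Nfkb1-/-* change passed without HU replicate 4 of that genotype, at 0.55 (adjusted p = 0.043), and without *Bcl3-/-* WB replicate 2, where the value stayed at 0.43 and only the spread shared by all groups differed (adjusted p = 0.038).

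The response of this probe set in *Nfkb1-/-* mice exceeded that in *Bcl3-/-* mice by 0.80 ± 0.24 log2 units (95% interval 0.31 to 1.29). This contrast was added after the values were seen and did not pass the test (limma, adjusted p = 0.077), which 1.73% of all probe sets passed. Without *Bcl3-/-* WB replicate 4 it was 0.94 (adjusted p = 0.036), and without replicate 2 of that group 0.60 (adjusted p = 0.14). The probe set 1454037_a_at changed by -0.25, 0.26 and 0.06 log2 units in wild type, *Nfkb1-/-* and *Bcl3-/-* muscle, with adjusted p-values of 0.51, 0.42 and 0.87. Its *Bcl3-/-* change was 0.32 without WB replicate 2 (adjusted p = 0.13) and -0.06 without WB replicate 4. All 3 *Flt1* probe sets were thus below 0 in wild type and above 0 in *Nfkb1-/-* muscle, and they were of both signs in *Bcl3-/-* muscle. Which *Flt1* transcripts each probe set reads was not tested.

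No change of the angiopoietin receptors passed the test with all arrays weighted equally. *Tek* read 48.7 to 60.8 in wild type WB and 44.0 to 54.7 in wild type HU muscle, 47.4 to 64.3 and 43.5 to 61.4 in *Nfkb1-/-*, and 214 to 307 and 231 to 277 in *Bcl3-/-* muscle. Its changes were -0.10, -0.03 and -0.01, each ± 0.12 (SE) log2 units, with adjusted p-values of 0.75, 0.93 and 0.98. *Tie1*, at 14.1 to 22.9 on the wild type and *Nfkb1-/-* arrays, changed by -0.02 and 0.01 ± 0.20 log2 units there.

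In *Bcl3-/-* muscle *Tie1* read 170, 178, 140 and 66.9 in WB and 91.2, 108, 104 and 91.9 in HU. The HU arrays lay close together and under 3 of the 4 WB arrays, while WB replicate 4 was the lowest of all 8. With it the change was -0.40 ± 0.20 (SE) log2 units (limma, adjusted p = 0.20), and without it -0.72 (adjusted p = 0.0017). With array weights it was -0.46 (adjusted p = 0.040), and without WB replicate 2 it was -0.25 (adjusted p = 0.50). The same array gave the lowest WB values of *Pecam1* (108 against 170 to 234) and *Cdh5* (258 against 313 to 415). It is 1 of the 2 arrays named above as farthest from their group, and the reason for its values was not tested.

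Neither junction gene passed the test in any genotype. *Pecam1* read 42.4 to 54.4 in wild type WB and 34.7 to 51.9 in wild type HU muscle, and 36.6 to 58.5 and 45.7 to 70.4 in *Nfkb1-/-* muscle. On the *Bcl3-/-* scale it read 108 to 234 in WB and 130 to 189 in HU. Its changes were -0.10, 0.20 and -0.08, each ± 0.20 (SE) log2 units, with adjusted p-values of 0.85, 0.62 and 0.85. The *Bcl3-/-* change was -0.31 without WB replicate 4 (adjusted p = 0.28) and 0.06 without WB replicate 2 (adjusted p = 0.90). The brighter *Cdh5* probe set, 1433956_at, read 29.1 to 36.8 in wild type WB and 23.7 to 32.2 in HU, 35.6 to 47.0 and 26.4 to 39.4 in *Nfkb1-/-*, and 258 to 415 and 290 to 352 in *Bcl3-/-* muscle. It changed by -0.23, -0.26 and -0.09, each ± 0.14 log2 units, and by -0.21 in *Bcl3-/-* muscle without WB replicate 4. Averaged over genotypes the *Cdh5* change was -0.19 ± 0.08 (limma, adjusted p = 0.084). The dim probe set 1422047_at averaged 0.06 ± 0.08.

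*Eng*, the endoglin gene, was the only one of the 9 with a change past the threshold once the genotypes were averaged. Its main probe set, 1417271_a_at, read 52.1, 49.6, 53.2 and 48.8 in WB and 41.1, 50.6, 36.4 and 42.3 in HU muscle of wild type mice. In *Nfkb1-/-* mice it read 47.5, 60.2, 48.7 and 55.8 in WB and 51.0, 46.6, 45.1 and 46.0 in HU. On the *Bcl3-/-* scale it read 364, 370, 320 and 277 in WB and 232, 305, 294 and 216 in HU. HU arrays tended to the lower end in each genotype, but the groups overlapped in all 3.

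The change of *Eng* was -0.27 ± 0.12 (SE) in wild type (limma, adjusted p = 0.22), -0.16 ± 0.12 in *Nfkb1-/-* (adjusted p = 0.44) and -0.35 ± 0.12 log2 units in *Bcl3-/-* muscle (adjusted p = 0.057). Without WB replicate 4 the *Bcl3-/-* change was -0.44 (adjusted p = 0.025), and without both outlying WB arrays it was -0.40 (adjusted p = 0.10). The mean of the 3 changes was -0.26 ± 0.07, with a 95% interval of -0.40 to -0.12, and passed the test (limma, adjusted p = 0.0074). In this mean 1 of the 14 probe sets passed, lower, and 0 higher, where 8.54% of all probe sets passed as lower and 12.6% as higher. At an unadjusted p under 0.05 (32.9% of all probe sets) there were 3 lower, of *Eng*, *Cdh5* and *Apln*. The *Apln* probe set was under the floor of the filter on every wild type and *Nfkb1-/-* array, at 8.01 to 16.2. Its mean change thus rests in part on values under that floor and is only a description. The second *Eng* probe set, 1432176_a_at, did not share the change of the main *Eng* probe set. It read 24.3 to 27.4 in WB and 21.7 to 33.4 in HU muscle of wild type mice, and its changes were -0.03, 0.03 and 0.16, with a mean of 0.05 ± 0.08 log2 units (adjusted p = 0.67).

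**Figure D3:**
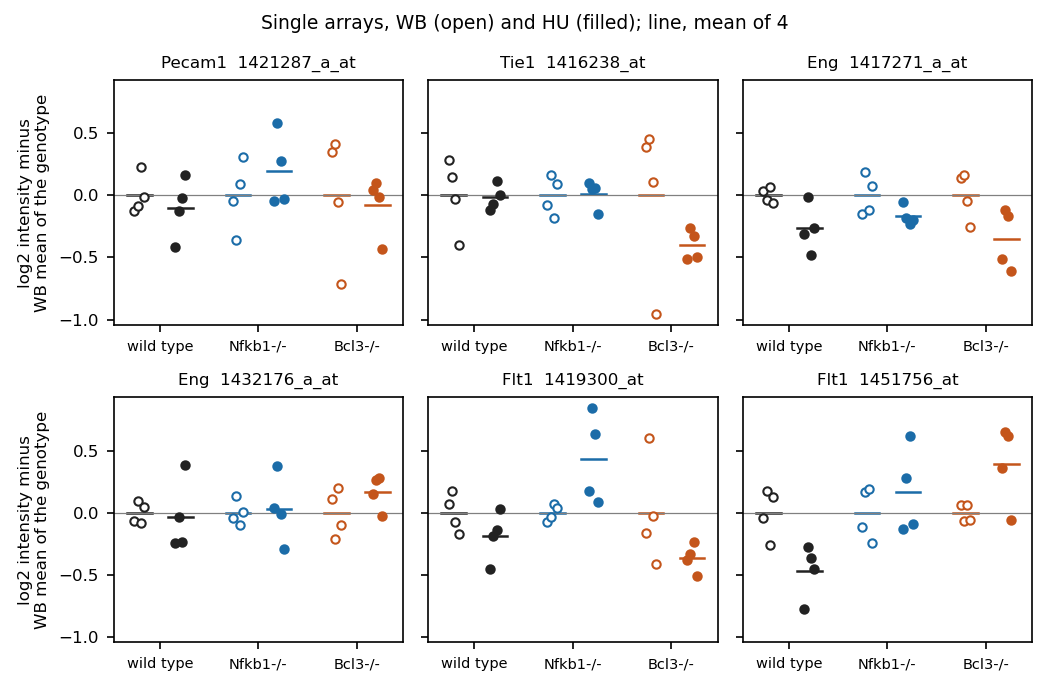
Single arrays of 6 probe sets as log2 intensity minus the WB mean of the same genotype, WB open and HU filled, with the mean of 4 as a line. *Pecam1* overlaps throughout, *Bcl3-/-* WB replicate 4 is the low open point of *Tie1*, the *Eng* probe sets part ways, and the *Flt1* probe sets differ in *Bcl3-/-* muscle.

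Before unloading, no difference between wild type and *Nfkb1-/-* muscle passed the test for the 9 genes. In the comparison of *Nfkb1-/-* with wild type WB arrays 0 of the 14 probe sets passed the test, where 0.902% of all probe sets did, and 0 had an unadjusted p under 0.05, against 7.85% of all. The differences ran from -0.17 to 0.27 log2 units, the highest for *Kdr* (0.27 ± 0.16, SE) and the lowest adjusted p (limma) being 0.79. The lowest was that of *Cdh5* 1422047_at, which, like *Apln*, was under 20 on all 16 wild type and *Nfkb1-/-* arrays. Over the 12 probe sets that exceeded 20 on at least 1 of the 16, the differences ran from -0.08 to 0.27. The 95% intervals of the 14 reached from -0.47, again for *Cdh5* 1422047_at, to 0.59, for *Kdr*. Differences inside these intervals thus remain possible, and the smallest difference that could be detected was not tested.

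The 5 genes nearest to *Tmem100* in pattern came from none of the vascular lists described below, and the nearest gene from those lists was *Cldn5*, the claudin of endothelial tight junctions, at rank 12 (1.06). Likeness was measured as the root mean square difference, over the 24 arrays, of log2 values taken relative to the WB mean of the same genotype. Of 11097 other genes the closest were *Lcn2* (0.66), which codes for the secreted protein lipocalin 2, *Fbxo32* (0.82), the ubiquitin ligase atrogin-1 of atrophying muscle, and *S100a9* (0.83), a calcium-binding protein abundant in neutrophils. Then came *Klf10* (0.85), a zinc finger factor induced by TGF-β, and *Chac1* (0.90), which degrades glutathione. *Lcn2* changed by 0.73, 2.31 and 1.74 log2 units in wild type, *Nfkb1-/-* and *Bcl3-/-* muscle, *Fbxo32* by 0.85, 1.85 and 1.13. In wild type muscle each of the 5 had a smaller change than *Tmem100*. The other 9 genes ranked from 3943 (*Flt1*) to 10462 (*Vegfa*) in this list.

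**Figure D4:**
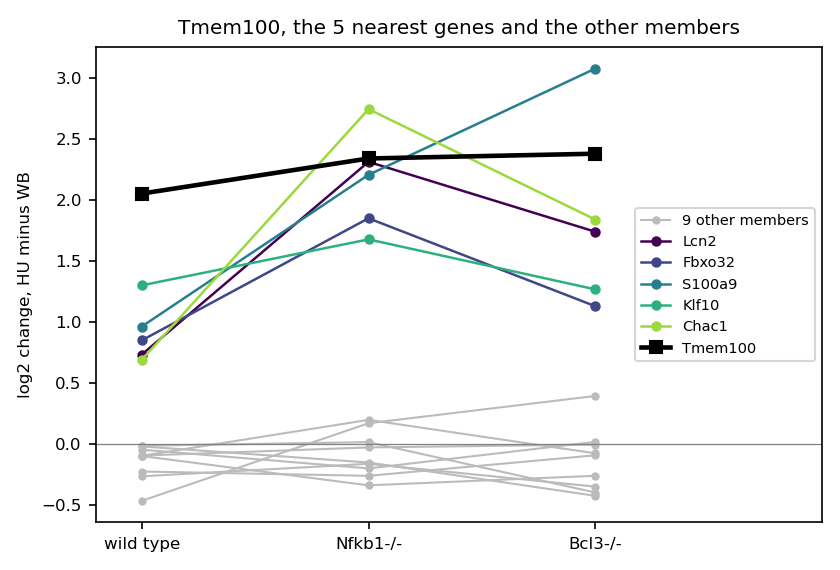
Change from WB to HU (log2) in the 3 genotypes for *Tmem100*, the 5 genes nearest to it over the 24 arrays, and the main probe sets of the other 9 genes, with lines joining the points of a gene. *Tmem100* runs from 2.05 to 2.38, and the other 9 genes lie between -0.47 and 0.39.

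Beyond these 10, lists of other vascular genes were read with 1 probe set a gene, and 122 of their 125 annotated genes were tested. In wild type muscle 4 of the 122 passed the test, 1 higher and 3 lower, against 3.93% of all genes. In *Nfkb1-/-* muscle 12 were higher and 8 lower, against 12.2% of all genes, and in *Bcl3-/-* muscle 10 were higher and 7 lower, against 10.5%. For the mean of the genotypes 19 were higher and 17 lower, against 21.8%. The responses of wild type and either knockout differed past the threshold for 0 of the 122, against 0.207% (*Nfkb1-/-*) and 1.17% (*Bcl3-/-*) of all genes, so a call in 1 genotype and not in another is not a shown difference between them.

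Genes of endothelial identity moved both ways. Of 25 tested, 0 passed in wild type, 1 rose and 1 fell in *Nfkb1-/-*, and 4 rose and 1 fell in *Bcl3-/-* muscle. In the knockouts these were 8% and 20% of the list, against 12.2% and 10.5% of all genes. *Cldn5* changed by 0.87, 0.90 and 1.27 log2 units in wild type, *Nfkb1-/-* and *Bcl3-/-* muscle, and passed in *Bcl3-/-* muscle (limma, adjusted p = 0.015). *Egfl7*, a secreted endothelial protein, changed by 0.48, 0.42 and 0.60 and passed there too (adjusted p = 0.0099). *Selp*, the adhesion molecule P-selectin, rose by 0.75 in *Nfkb1-/-* and 0.54 in *Bcl3-/-* muscle. *Emcn*, a sialomucin of capillaries and veins, fell by 0.74 in *Nfkb1-/-* muscle (adjusted p = 0.00082), and *Ramp2*, part of the adrenomedullin receptor, fell by 0.70 in *Bcl3-/-* muscle (adjusted p = 0.0053). The median of the 25 mean changes was 0.03, against -0.01 for all genes.

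Among 20 endothelial transcription factors, 0 passed in wild type and 15% in each knockout, against 12.2% (*Nfkb1-/-*) and 10.5% (*Bcl3-/-*) of all genes. In *Nfkb1-/-* muscle *Nr2f2*, which sets venous identity, rose by 0.57, *Ets2* rose by 0.45, and *Ets1* fell by 0.42 log2 units. In *Bcl3-/-* muscle *Ets2* rose by 0.67, *Hhex* rose by 1.16, and *Sox18* fell by 0.61. Of 8 other genes of the VEGF family, 1 (12.5%) passed in each genotype, against 3.93%, 12.2% and 10.5% of all genes. The co-receptor gene *Nrp2* fell by 0.41 in wild type (adjusted p = 0.020), the ligand gene *Vegfd* rose by 0.88 in *Nfkb1-/-* (adjusted p = 0.0045), and *Vegfb* fell by 0.76 in *Bcl3-/-* muscle (adjusted p = 0.0030). *Vegfb* changed by -0.44 in wild type and -0.35 in *Nfkb1-/-* muscle, without passing. Of 4 angiopoietin genes 0 passed in any genotype, and of 2 apelin system genes *Ece1*, which codes for a peptide-cleaving enzyme, rose by 0.56 in *Nfkb1-/-* muscle.

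The list nearest to *Tmem100* and *Eng* by pathway was that of BMP and TGF-β signalling, with 19 genes tested. For the mean of the genotypes 7 were higher and 0 lower, where 12.6% of all genes were higher and 9.20% lower, and the median change was 0.10 against -0.01 for all genes. In wild type, *Nfkb1-/-* and *Bcl3-/-* muscle 5.3%, 15.8% and 15.8% of the list passed, against 3.93%, 12.2% and 10.5% of all genes. *Bmp4*, a ligand, rose by 0.63 in *Nfkb1-/-* and 0.62 in *Bcl3-/-* muscle and changed by 0.25 in wild type (adjusted p = 0.31). *Tgfbr1*, a TGF-β receptor, rose by 0.66 in wild type and 0.61 in *Nfkb1-/-* muscle. *Smad7*, an inhibitor within the pathway, rose by 0.68 in *Nfkb1-/-* muscle, and *Smad1* and *Bmpr1a* rose by 0.38 and 0.42 in *Bcl3-/-* muscle. The ALK1 gene *Acvrl1* changed by -0.16, -0.14 and -0.20, without passing.

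Of 15 Notch and guidance genes, 0 passed in wild type and 13.3% in each knockout, near the 12.2% (*Nfkb1-/-*) and 10.5% (*Bcl3-/-*) of all genes. *Dll4*, the Notch ligand of tip cells, rose by 0.66 and *Plxnd1* fell by 0.48 in *Nfkb1-/-* muscle. *Hes1*, a Notch target, rose by 1.09 and *Notch4* fell by 0.61 in *Bcl3-/-* muscle. Of 19 hypoxia and metabolic inducers, 0 passed in wild type, 3 rose and 2 fell in *Nfkb1-/-* muscle, and 1, *Esrra*, fell by 0.39 in *Bcl3-/-* muscle. In the knockouts these were 26.3% and 5.3% of the list, against the same shares of all genes. The 3 with the smallest adjusted p in *Nfkb1-/-* muscle were *Ppargc1b*, a co-activator of mitochondrial genes, which fell by 0.57, *Adm*, the vasodilator peptide adrenomedullin, which rose by 0.79, and *Bnip3*, which rose by 0.38 log2 units.

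Among the vascular lists, the angiogenesis inhibitors gave the calls that all genotypes shared. *Sparc*, a collagen-binding matrix protein, fell by 0.67, 0.81 and 0.67 log2 units in wild type, *Nfkb1-/-* and *Bcl3-/-* muscle, with adjusted p-values of 0.019, 0.0019 and 0.0099. *Serpinf1*, which codes for pigment epithelium-derived factor, fell by 0.53, 0.76 and 0.61, with adjusted p-values of 0.022, 0.00075 and 0.0051. *Col18a1*, the source of endostatin, fell by 0.56 in *Nfkb1-/-* muscle. Of the 10 genes tested these were 2, 3 and 2 lower and 0 higher in the 3 genotypes, with a median mean change of -0.11. That was 20%, 30% and 20% of the list, against 3.93%, 12.2% and 10.5% of all genes. *Sparc* and *Serpinf1* are also abundant in fibroblasts. Among 4 fibroblast markers, *Dcn*, the decorin gene, changed by -0.10, 0.05 and -0.07 and *Pdgfra*, a receptor of fibroblasts, by -0.02, 0.13 and -0.20, without passing in any genotype. The collagen genes *Col1a1*, at -1.20, -1.75 and -2.35, and *Col3a1*, at -0.43, -1.10 and -1.11, passed in both knockouts and not in wild type muscle (limma, adjusted p = 0.061 and 0.47). Of the fibroblast genes outside these markers, *Col1a2* passed as lower in all 3 genotypes, at -0.79, -1.25 and -0.74 (limma, adjusted p = 0.037, 0.00071 and 0.030). *Lum* passed as lower in both knockouts, at -0.74 and -0.65 (limma, adjusted p = 0.021 and 0.043). The summed intensity of *Col1a1*, *Col3a1*, *Pdgfra* and *Dcn* was 4026 to 4992 in WB and 2809 to 3671 in HU muscle of wild type mice, 4176 to 4992 and 2156 to 3944 in *Nfkb1-/-*, and 16857 to 25507 and 11281 to 15380 in *Bcl3-/-* mice. The groups did not overlap in any genotype, and the part of these cells in the inhibitor result was not tested.

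**Figure D5:**
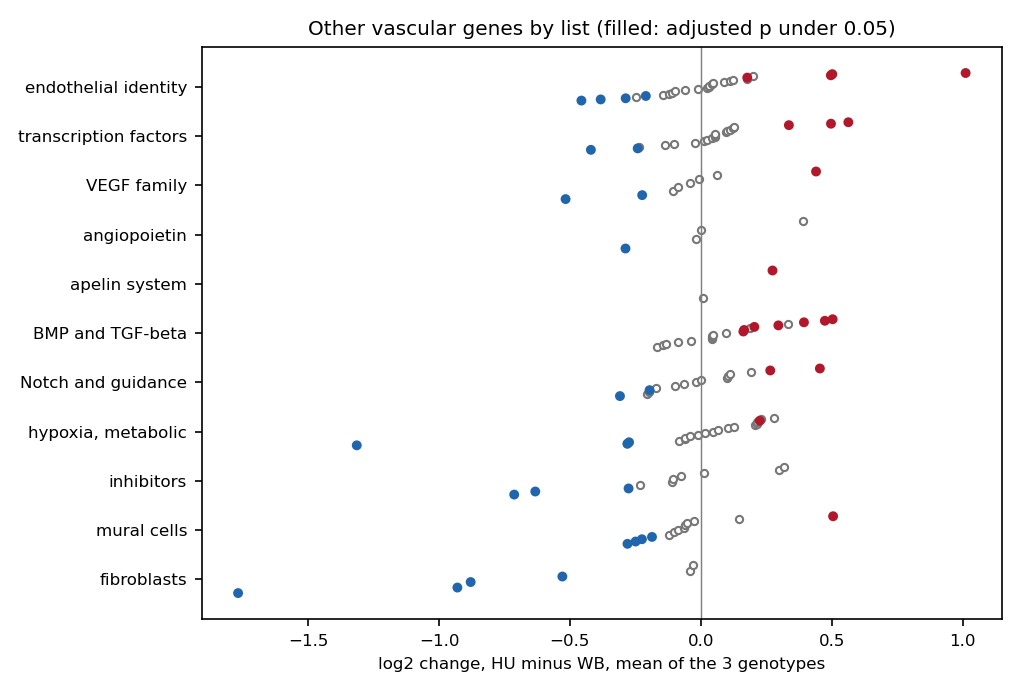
Change from WB to HU averaged over the 3 genotypes (log2) for each gene of 11 lists, with genes past an adjusted p of 0.05 filled, red for higher and blue for lower. In the BMP and TGF-β list 7 filled points are all above 0, in the inhibitor list 3 are all below 0, and the endothelial identity genes fall on both sides.

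Summed markers of the endothelium overlapped between WB and HU muscle. The summed intensity of the 8 endothelial markers was 282 to 386 in WB and 276 to 376 in HU muscle of wild type mice, 306 to 410 and 308 to 442 in *Nfkb1-/-*, and 1543 to 2208 and 2090 to 2647 in *Bcl3-/-* mice, overlapping in each. The median sums of WB and HU were 298 and 351, 316 and 359, and 2155 and 2375, higher in HU each time. In the mean of the genotypes *Cldn5* (1.01) and *Egfl7* (0.50) passed as higher and *Emcn* (-0.46) as lower. *Pecam1*, *Cdh5*, *Kdr*, *Tie1* and *Tek* did not pass, so the sum mixes directions. Summed mural cell markers overlapped too, at 1306 to 1443 and 1055 to 1502 in wild type, 1541 to 1745 and 1509 to 1584 in *Nfkb1-/-*, and 6237 to 7197 and 6548 to 6923 in *Bcl3-/-* muscle, with *Cspg4* under 20 on all 16 wild type and *Nfkb1-/-* arrays. Macrophage markers summed to 394 to 498 and 436 to 640 in wild type, 497 to 645 and 460 to 837 in *Nfkb1-/-*, and 2784 to 3531 and 2600 to 2983 in *Bcl3-/-* muscle. The part of these cells in the changes of *Tmem100*, *Eng* and *Flt1* was not tested.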

How the data were processed

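Total RNA of gastrocnemius and plantaris muscles was hybridised to Affymetrix mouse GeneChip arrays. The authors summarised the arrays by RMA with quantile normalization in GenePattern and deposited linear intensity values, 1 per probe set, in a single table; the labels name GCOS and RMA. The number of arrays limits the precision.

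Intensities were taken to log2 and fitted with limma 3.58.1 (R 4.3.3), 1 mean per group over 24 arrays (18 residual degrees of freedom), with HU minus WB per genotype, the mean of these, and their differences as contrasts. Probe sets above 20 on at least 4 of 24 arrays were tested (19294 of 22626; 64 control probe sets left out), with Benjamini-Hochberg adjustment over all of them. Where a gene had several, the brightest on average stood for it. Of the 22626, 20380 probe sets listed 1 gene, 691 several and 1555 none. *Tmem100* stayed out of the counts.

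From other lists, up to 3 calls per list and genotype with the smallest adjusted p were named, except where a marker or pathway receptor is named beside them; *Acvrl1* was chosen after its values were seen. Members and lists were chosen with earlier results of these data known. Promoter sequences came from RefSeq (GRCm38.p6). The fit was tested on simulated data. Alternatives covered filters, normalization, log offset, array weights, variance trend, the arrays in the fit, a replicate block, and the t-test of the study's methods. Replicate numbers did not pair arrays: 2 of 12 correlations of same-numbered WB and HU deviations exceeded 0.1.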

Additional observations from a re-analysis of the deposited data

Results flagged for a closer look

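Among 90 groups of 4 arrays, 1 array stood apart from the other 3 in 6, by a gap that took up most of the range of the group (Dixon test at 95%). Chance alone gives this in about 1 of 20 groups. *Cdh5* 1422047_at read 7.32 on wild type WB replicate 4 against 5.09 to 5.13 on the others (gap 0.982 of the range), all under the floor of 20. *Cdh5* 1433956_at read 352 on *Bcl3-/-* HU replicate 2 against 290 to 298 (0.868). *Flt1* 1454037_a_at read 151 on *Bcl3-/-* WB replicate 2 against 67.6 to 78.6 (0.867). *Tek* read 44.0 on wild type HU replicate 1 against 54.0 to 54.7 (0.933). *Vegfa* 1451959_a_at read 32.4 on wild type WB replicate 3 against 28.2 to 28.9 (0.8292). *Apln* read 11.5 on *Nfkb1-/-* WB replicate 3 against 14.5 to 14.8 (0.906), again under the floor.

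The *Flt1* probe set 1419300_at was flagged because every HU array lay above the WB mean of its genotype in *Nfkb1-/-* and below it in *Bcl3-/-* muscle. The changes were 0.43 and -0.37 log2 units, and neither passed the test (limma, adjusted p = 0.099 and 0.17). The *Bcl3-/-* WB and HU arrays overlapped, and that change was -0.17 without WB replicate 2. The difference of 0.80 (0.7989) log2 units between the knockouts did not pass the test (limma, adjusted p = 0.077), and passed in 1 of 16 fits that each left out an array (0.60 to 0.94, adjusted p from 0.15 to 0.036). With all arrays, *Flt1* 1451756_at and 1454037_a_at were above 0 in both knockouts.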

How the results depend on the processing

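*Tmem100* kept its rise in every alternative: 1.75 to 2.45 log2 units in wild type, 2.06 to 2.52 in *Nfkb1-/-* and 2.01 to 2.95 in *Bcl3-/-* muscle. The mean change of *Eng* (1417271_a_at) passed in all 34 alternatives (-0.30 to -0.22, adjusted p 0.0028 to 0.017), but with the probe set 1432176_a_at in its place it was 0.054, the other direction. Of the 14 other probe sets, the filter of the study's methods called 1 in each genotype (*Flt1* 1451756_at lower in wild type, *Flt1* 1419300_at higher in *Nfkb1-/-*, *Eng* lower in *Bcl3-/-*) and 1 for wild type against *Bcl3-/-* responses, and the filter within each set of arrays called 1 for the latter, *Flt1* 1451756_at in both. Fewer probe sets are tested under these filters. Array weights called 2 in *Nfkb1-/-*, 3 in *Bcl3-/-*, 3 in the mean, and 1 in each difference of responses. *Apln*, under the floor on all wild type and *Nfkb1-/-* arrays, was among these calls in *Nfkb1-/-* and in the mean. Quantile normalization again called 1 in *Bcl3-/-* and 2 in the mean, centring 1 in *Bcl3-/-*, and the log offset of 16 called 3 in *Bcl3-/-* and 1 in the difference from it. Leaving out *Bcl3-/-* WB replicates 2 and 4, an alternative chosen after seeing the data, called 1 in *Nfkb1-/-*, 1 in *Bcl3-/-* and 3 in the mean. The replicate block called 1 in *Bcl3-/-* (*Eng*, lower) and 1 in the difference from it (*Flt1* 1451756_at), and 1 of the 122 list genes in WB. Its numbers do not pair the arrays. The methods' t-test gave 0 calls after adjustment in each genotype, and at an unadjusted p under 0.05 gave 1 lower in wild type, 0 in *Nfkb1-/-* and 1 lower in *Bcl3-/-*.

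Leaving out single arrays gave 0 to 0 calls in wild type, 0 to 2 in *Nfkb1-/-* (2 without HU replicate 4, *Flt1* 1419300_at and *Apln*, the latter under the floor of 20), 0 to 2 in *Bcl3-/-* (2 without WB replicate 4, *Tie1* and *Eng*), 1 to 3 in the mean, 0 to 0 for wild type against *Nfkb1-/-* responses, 0 to 1 against *Bcl3-/-*, and 0 to 0 in WB.

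For the 122 list genes, the counts of 4, 20 and 17 calls in wild type, *Nfkb1-/-* and *Bcl3-/-* muscle became 14 and 33 in the first 2 with array weights, 13 and 28 in the last 2 with the log offset, 0, 2 and 0 with the methods' t-test, and 7 in wild type and 11 in *Bcl3-/-* without the 2 arrays. Differences of responses and WB levels, 0 otherwise, gave for wild type against *Nfkb1-/-* 1 with the filter within each set, 4 with array weights and 1 with quantile normalization, and for wild type against *Bcl3-/-* 6 with the filter of the methods, 1 with array weights and 4 with the log offset. WB levels gave 4 with the filter of the methods, 1 with only the groups compared, 2 with array weights and 1 with quantile normalization. Single arrays left out gave 2 to 7 in wild type (2 without HU replicate 4, 7 without WB replicate 3), 14 to 25 in *Nfkb1-/-*, 12 to 19 in *Bcl3-/-*, 31 to 39 in the mean, 0 to 1 against *Nfkb1-/-*, 0 to 0 against *Bcl3-/-* and 0 to 1 in WB. The causes were not tested. Of the values of single probe sets and genes, 3639 were counted as unchanged, 41 passed the threshold newly, and 1 turned, that of *Eng*. The unchanged ones kept their side of the threshold, except for the untested *Tmem100* values. Those have no side, and were counted as unchanged because they moved by less than the SD within groups.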

Other observations

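Among the marker lists of other cells, that of fibroblasts had the largest share of calls, 66.7% in *Nfkb1-/-* and 66.7% in *Bcl3-/-* muscle against 12.2% and 10.5% of all genes. Among 13 macrophage genes *Lgals3*, which codes for galectin-3, rose by 2.02 log2 units in wild type (limma, adjusted p = 0.0017) and passed in *Nfkb1-/-* muscle too (adjusted p = 0.0022), the only call in that list. That was 7.7% of the list in each, against 3.93% and 12.2% of all genes. Of 6 fibroblast genes 1, 4 and 4 fell in wild type, *Nfkb1-/-* and *Bcl3-/-* muscle, *Col1a1*, a chain of type I collagen, by 1.75 in *Nfkb1-/-* and 2.35 in *Bcl3-/-* muscle. *Col1a2* was the 1 lower in wild type, where it fell by 0.79 (adjusted p = 0.037). Of 13 mural cell genes *Cspg4* passed as lower in *Nfkb1-/-* muscle (-0.41), but all its values there were under the floor of 20. In *Bcl3-/-* muscle *Kcnj8*, a potassium channel of pericytes, rose by 0.64 and *Mcam* fell by 0.44. The mural calls were 7.7% of the list in *Nfkb1-/-* and 15.4% in *Bcl3-/-* muscle, against 12.2% and 10.5% of all genes. *Lyve1*, a marker of lymphatic endothelium, fell by 0.98 in *Bcl3-/-* muscle (adjusted p = 0.0078), 1 of 2 lymphatic genes tested. *Mbp*, a myelin gene, rose by 0.84 in *Nfkb1-/-* and 0.96 in *Bcl3-/-* muscle. *Adipoq*, the adiponectin gene of fat cells, rose by 0.75 in *Nfkb1-/-* muscle, *Myf5*, a factor of satellite cells, rose by 0.53 in *Bcl3-/-* muscle, and of 2 blood genes tested 0 passed.

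*Myh7*, the slow myosin heavy chain, rose by 0.58 in *Nfkb1-/-* and fell by 0.73 in *Bcl3-/-* muscle. It was 1 of 10 muscle fibre genes, and its wild type response exceeded that in *Bcl3-/-* mice by 1.31 ± 0.27 (SE) log2 units (limma, adjusted p = 0.017). That was 10% of the list, against 1.17% of all genes. *Myh2*, the myosin of fast oxidative fibres, fell by 1.13 in *Bcl3-/-* muscle (limma, adjusted p = 0.0030), and *Actn3*, the α-actinin of fast fibres, rose by 0.25 there (adjusted p = 0.017). In wild type, *Nfkb1-/-* and *Bcl3-/-* muscle 0%, 10% and 30% of the list passed, against 3.93%, 12.2% and 10.5% of all genes.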
